A study of Homo sapiens with 4 samples.

Results

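The genes described here encode the subunits, regulators and assembly factors of the proteasome. They were chosen by symbol: every probe whose gene symbol in the platform annotation starts with PSMA, PSMB, PSMC, PSMD, PSME, PSMF or PSMG. The rule took 50 of 24459 probes and 48 of 17605 genes, and all 48 were among the 15616 genes measured. RNA had been profiled on 4 single-colour arrays, 1 for each combination of line and medium. The lines were HT29 and DLD1, both established human colorectal cancer cell lines. The groups were HT29 without glucose, HT29 with glucose, DLD1 without glucose and DLD1 with glucose. All 4 groups received 2 mM glutamine and 10% dialysed fetal bovine serum for 24 h, and the groups with glucose received 10 mM of it as well. The labels name no genetic change in either line, and no label says whether a culture was repeated.

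The proteasome is the cell's main protease for proteins tagged with ubiquitin. Its core particle is a barrel of stacked rings, with outer rings built from the alpha subunits PSMA1 to PSMA7 and inner rings from the beta subunits PSMB1 to PSMB7, of which PSMB5, PSMB6 and PSMB7 carry the proteolytic sites. A regulatory particle caps the barrel: its base holds the ATPases PSMC1 to PSMC6, which unfold substrates, and its lid holds the deubiquitinase PSMD14 with its scaffold subunits. In cells exposed to interferon, PSMB8, PSMB9 and PSMB10 take the places of PSMB5, PSMB6 and PSMB7 to form the immunoproteasome, and PSME1 with PSME2 forms the activator PA28, which can cap the barrel in place of the regulatory particle. Transcription of the standard subunits is raised by NFE2L1 when proteasome activity falls short.

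Of the 48 genes, 31 encode the 26S proteasome: 14 core subunits, 9 base subunits and 8 lid subunits. A further 5 encode the immunoproteasome subunits and PA28, 3 encode other regulators (PSME3, PSME4 and PSMF1), 6 encode assembly factors, and 2 encode subunits known from a single tissue (PSMA8 of testis and PSMB11 of thymus). PSMC3IP carries the prefix by its name alone and is a partner of the meiotic recombination machinery. PSMG2 stands on the array under an older symbol, so it fell outside the rule and is given apart. Of the 48 genes, 47 were brighter on all 4 arrays than 95% of the blank spots, and PSMG4 was so on every array but DLD1 without glucose. PSMG4, PSMA8, PSMB11 and PSMF1 were dim, with spot medians of 35.8 to 59.7 against blank medians of 34.4 to 35.6, so their small changes carry little information.

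Between 85.5% and 87.0% of the probes were above background on the 4 arrays. Of the 6 epithelial markers measured, EPCAM, KRT18 and KRT19 were bright on every array, with deposited intensities between 2247.3 and 23225.4. CDH1 lay between 155.4 and 263.6, and VIL1 between 62.1 and 209.1. CDX2, an intestinal transcription factor, had deposited intensities of 6.2 and 4.0 in HT29 and 148.7 and 289.4 in DLD1, without and with glucose in each line. Of the measured markers of other cell types, CDH5 and VWF had deposited intensities of 5.6 or less. CD3E was near the blanks, with spot medians between 36.0 and 36.9, and DCN, averaged over 2 probes, had spot medians of 84.5 without and 97.3 with glucose in HT29, and 85.7 without and 93.5 with glucose in DLD1. CD14 had 29.4 without and 38.4 with glucose in HT29, and 18.9 without and 25.4 with glucose in DLD1. CD68 was higher without glucose, at 78.9 without and 19.1 with glucose in HT29, and 36.4 without and 16.7 with glucose in DLD1, and its part in the results below was not tested. RNA came from whole cultures, so a shift in the makeup of a culture and a change in RNA per cell cannot be told apart. Values below are normalised log2 intensities, and a change is the log2 value without glucose minus the log2 value with glucose in the same line.

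Without glucose, most subunits of the 26S proteasome were lower in both lines. Of the 31, 30 were lower in DLD1 and 23 in HT29, where PSMD2 did not move (0.00). The same 23 were lower in both lines. Over all 15616 genes, 51.0% were lower in DLD1, 50.7% in HT29 and 32.7% in both. The median change of the 31 subunits was -0.23 in HT29 and -0.47 in DLD1, while the median of all genes was -0.0021 in each line. PSMB5 was the 1 subunit higher in both lines, a direction taken by 30.9% of all genes. The other 6 subunits, PSMA3, PSMB7, PSMC4, PSMC6, PSMD8 and PSMD12, were higher in HT29 and lower in DLD1. How many of the 31 were lower in both lines depended on the processing, between 14 with the local background subtracted and 27 with median scaling. The background moved too: with median scaling 5981 of all 15616 genes were lower in both lines, against 5106 as reported.

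**Figure D1:**
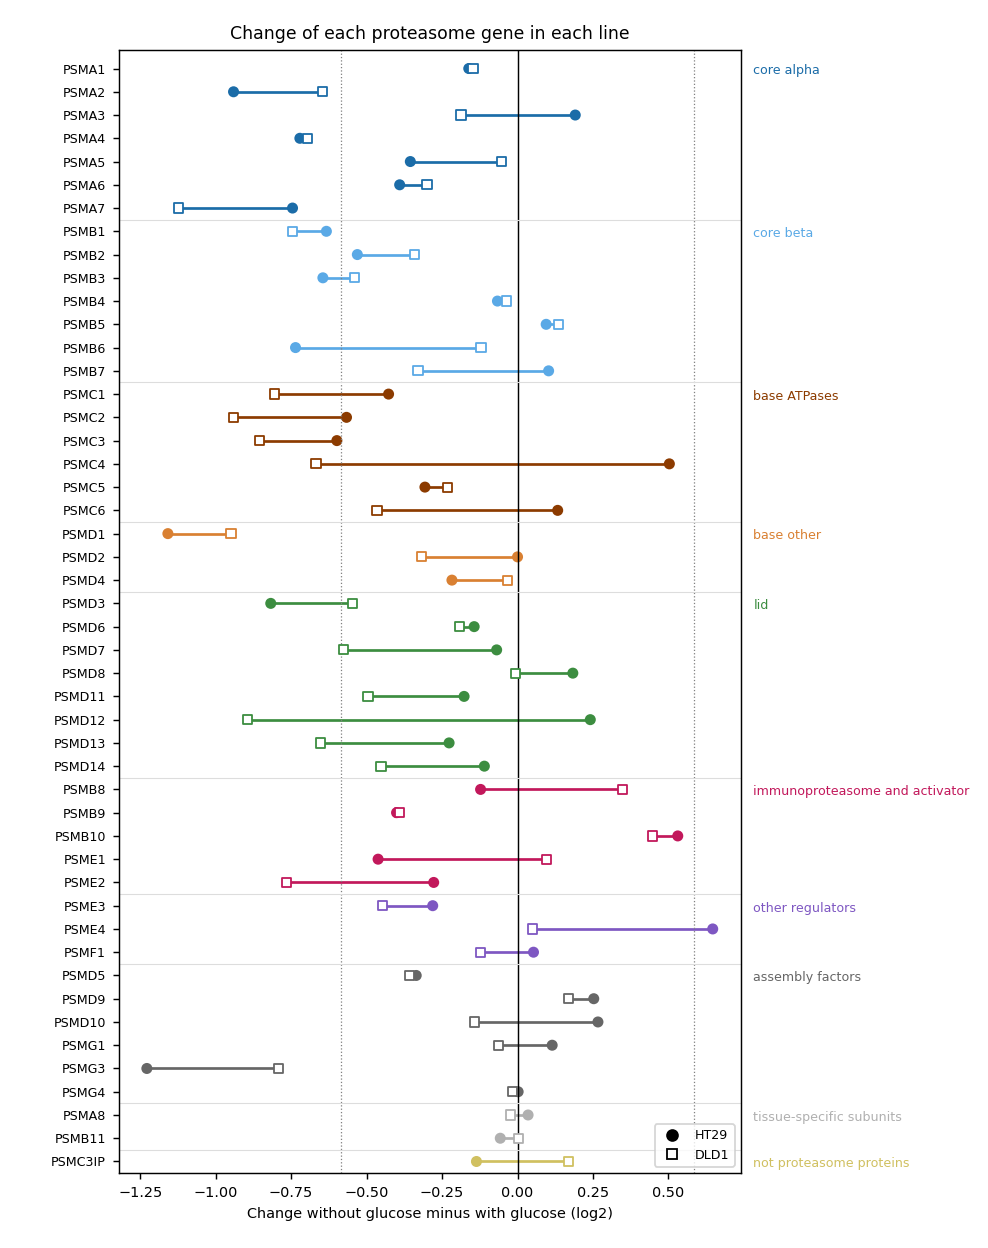
Change in log2 intensity, without minus with glucose, of each of the 48 genes in HT29 (filled circles) and DLD1 (open squares), grouped by role, with 1 array per line and medium and a line joining the lines' values. Dotted lines mark 1.5-fold. Most 26S subunits lie left of 0 in both lines, with medians of -0.23 in HT29 and -0.47 in DLD1, and PSMB10 lies right of 0 in both.

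At a threshold of 1.5-fold, 10 of the 48 genes were lower in HT29, where 8.95% of all genes were, and 13 of the 48 were lower in DLD1, where 4.58% of all genes were. Higher by at least 1.5-fold were 1 gene in HT29, PSME4, and 0 genes in DLD1, against 7.90% and 4.15% of all genes. The 7 genes at least 1.5-fold lower in both lines were PSMA2, PSMA4, PSMA7, PSMB1, PSMC3, PSMD1 and PSMG3, and 2.59% of all genes passed that rule. At 2-fold, PSMD1 and PSMG3 were lower in HT29 (3.29% of all genes) and PSMA7 was lower in DLD1 (0.807% of all genes). With 1 array per group these counts describe the arrays and have no replicate check within a line. The limma fit, in which the change of medium is repeated only across the lines, called 0 of the 48 genes at an adjusted p of 0.05 and 0% of all genes, and the smallest adjusted p was 0.303. With 1 residual degree of freedom this fit made no call at any fold planted in simulated data either, so its lack of calls says nothing about the genes. At an unadjusted p of 0.05, 17 of the 48 were lower and 1 was higher, where 7.68% of all genes were called lower and 948 of 15616 higher. In the simulated data 6.93% of the genes with no planted change passed that p.

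Signal strength moved with the result. All 31 of the 26S subunits, and 42 of the 48 genes, were among the 3904 genes of brightest mean signal. Those 3904 genes had median changes of -0.07 in HT29 and -0.04 in DLD1 as normalised here, and 38.6% of them were lower in both lines. With median scaling their medians were -0.31 and -0.29. The part of signal strength in the 26S result was not tested.

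Core subunits were lower by a median of 0.46 log2 in HT29 and 0.31 log2 in DLD1. The outer rings had median changes of -0.39 in HT29 and -0.30 in DLD1, and the inner rings -0.53 and -0.33. In 9 of the 14 core genes the level was lower in HT29 by more than in DLD1, but in 2 of the 14 with the deposited values, 4 with median scaling and 7 with cyclic loess. As reported, 5982 of all 15616 genes had the larger decrease in HT29. PSMA7, an outer ring subunit, had the largest decrease of the core on average. Its levels were 11.94 without and 12.68 with glucose in HT29, and 11.27 without and 12.39 with glucose in DLD1. Without glucose its level was 0.596 times that with glucose in HT29 and 0.459 times in DLD1, a mean change of -0.93 ± 0.27 (SD between the 2 lines, n = 2). PSMA2 changed by -0.94 in HT29 and -0.65 in DLD1, and PSMA4 by -0.72 and -0.70. In contrast PSMA1 (-0.16 and -0.15) and PSMA5 in DLD1 (-0.05) differed little between media, and PSMA3 was higher in HT29 by 0.19 and changed by -0.19 in DLD1.

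The inner ring subunits varied. PSMB1, PSMB2 and PSMB3, which carry no active site, changed by -0.63, -0.53 and -0.64 in HT29 and by -0.75, -0.34 and -0.54 in DLD1. PSMB4, also without an active site, was near 0 in both lines (-0.07 and -0.04). PSMB5, the chymotrypsin-like subunit, had levels of 10.44 without and 10.34 with glucose in HT29, and 11.43 without and 11.29 with glucose in DLD1. Its changes were thus 0.09 and 0.14, but with median scaling they were -0.16 and -0.27, so no direction holds for it. PSMB6, the caspase-like subunit, had 11.56 without and 12.29 with glucose in HT29, against 12.56 without and 12.68 with glucose in DLD1, a change of -0.74 in HT29 and -0.12 in DLD1. The DLD1 change of PSMB6 ran between -3.43 with the local background subtracted and 0.13 with cyclic loess. PSMB7, the trypsin-like subunit, had 12.25 without and 12.15 with glucose in HT29, against 12.04 without and 12.37 with glucose in DLD1, a change of 0.10 in HT29 and -0.33 in DLD1. No proteolytic subunit was at least 1.5-fold lower in both lines as reported, and PSMB6 was so with the local background subtracted, at -2.52 in HT29 and -3.43 in DLD1.

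Base and lid subunits had their larger decreases in DLD1. The base had median changes of -0.31 in HT29 and -0.67 in DLD1, and its 6 ATPases -0.37 and -0.74. The lid had medians of -0.13 in HT29 and -0.52 in DLD1, and its DLD1 median was 0.035 with the local background subtracted. In 13 of the 17 base and lid genes the decrease was larger in DLD1, among them 7 of the 8 lid genes. Of all 15616 genes, 4801 had the larger decrease in DLD1. With the local background subtracted the counts of base and lid genes were 8 of the 17 and 4 of the 8. The difference between the lines was not tested, since each line has 1 array per medium.

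PSMD1, a large scaffold subunit of the base, was the gene with the lowest mean change. Its levels were 9.56 without and 10.72 with glucose in HT29, and 10.04 without and 10.99 with glucose in DLD1. The level without glucose was 0.448 times that with glucose in HT29 and 0.518 times in DLD1, a mean change of -1.05 ± 0.15 (SD between the 2 lines, n = 2) with an adjusted p of 0.303 in limma. In the deposited value table the same gene had intensities of 652.8 without and 1594.6 with glucose in HT29, and 661.9 without and 1562.3 with glucose in DLD1. Among the ATPases, PSMC2 changed by -0.57 in HT29 and -0.94 in DLD1, PSMC3 by -0.60 and -0.85, and PSMC1 by -0.43 and -0.81. The ubiquitin receptor PSMD4 changed by -0.22 and -0.03. In the lid, the deubiquitinase PSMD14 changed by -0.11 in HT29 and -0.45 in DLD1, and PSMD3, a scaffold subunit, by -0.82 and -0.55.

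Of the 17 base and lid genes, 4 were higher in HT29 and lower in DLD1, as were 2863 of all 15616 genes. Besides PSMC4 and PSMD12 these were PSMC6 (0.13 and -0.47) and PSMD8 (0.18 and -0.01). PSMC4, an ATPase of the base, had 11.45 without and 10.94 with glucose in HT29, but 9.85 without and 10.52 with glucose in DLD1. Without glucose it was at 1.42 times its level with glucose in HT29 and at 0.629 times in DLD1, and it was the only one of the 48 genes that changed by at least 0.3 log2 one way in one line and the other way in the other, as 2.15% of all genes did. With the local background subtracted its change in HT29 was -0.13, so the higher level in HT29 does not hold there. PSMD12, a lid scaffold subunit, had 11.57 without and 11.33 with glucose in HT29, but 10.06 without and 10.95 with glucose in DLD1, a change of 0.24 in HT29 and -0.89 in DLD1. PSMC4, PSMD12 and PSMB6 had the largest differences in change between the lines. Across the 31 subunits the changes in HT29 and in DLD1 had a Pearson r of 0.42, and over all genes r was 0.52. Over the 29 without PSMC4 and PSMD12 r was 0.62. That pair was left out for its differing changes, which raises r by itself, so this r is not comparable with that of all genes. These correlations run across genes, which are not independent replicates and which share the same 4 arrays.

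**Figure D2:**
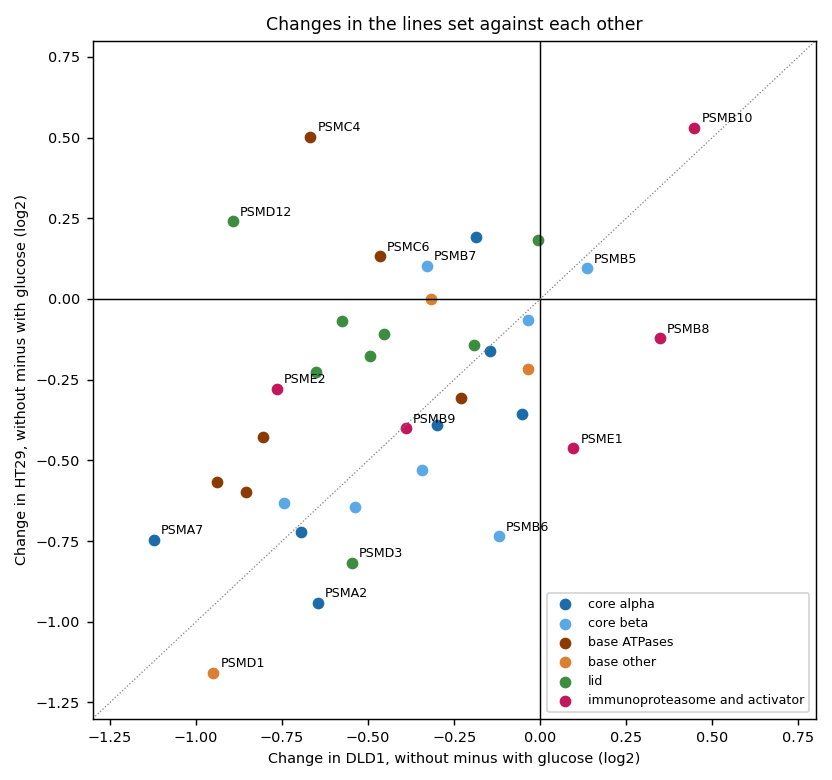
Change in log2 intensity without minus with glucose in HT29 (vertical axis) against DLD1 (horizontal axis) for the 26S subunits, the immunoproteasome subunits and PA28, 1 point per gene, with the dotted line marking equal change. Most 26S subunits lie at the lower left. PSMC4 and PSMD12 lie far above the diagonal, and PSMB10 stands alone at the upper right, with changes of 0.53 and 0.45.

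Promoters could be read from RefSeq (build GRCh38.p14) for 26 of the 26S genes, as windows of 300 bases, 250 before and 50 after the gene start, with more than 1 window for some genes. They were searched on both strands for TGACNNNGC, the core of the antioxidant response element to which NFE2L1 and NFE2L2 bind. It was found in at least 1 window of 7 of the 26 genes (26.9%) and of 16.1% of all 27305 genes with a window. CCAAT was found for 15 of the 26 (57.7%) and for 39.7% of all genes. No matches to different motifs overlapped in the windows of the 42 members that have one. The stretches around 6 of the TGACNNNGC matches are shown because they belong to genes whose changes are described above, 4 lower in both lines and 2 opposite in the lines. They are written 5′ to 3′ on the strand of the gene, with the match in capitals.
PSMA4, chr15:78540640-78540688, plus strand: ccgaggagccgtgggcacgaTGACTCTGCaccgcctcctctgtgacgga
PSMB3, chr17:38752617-38752665, plus strand: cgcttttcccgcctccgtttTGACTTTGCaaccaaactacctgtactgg
PSMD1, chr2:231056886-231056916, plus strand: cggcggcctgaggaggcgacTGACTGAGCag
PSMD3, chr17:39980750-39980798, plus strand: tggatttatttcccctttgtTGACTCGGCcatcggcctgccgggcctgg
PSMC4, chr19:39971172-39971214, plus strand: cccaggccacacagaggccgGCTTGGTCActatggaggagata
PSMD12, chr17:67366714-67366762, minus strand: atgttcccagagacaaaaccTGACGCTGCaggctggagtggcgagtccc
The match in PSMC4 reads on the opposite strand. The motif was thus present both in promoters of genes that were lower in both lines and in those of PSMC4 and PSMD12, which went opposite ways. A match is a description of the letters only.

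The immunoproteasome subunits and PA28 did not move as a group. Their median change was -0.28 in HT29, beside -0.46 for the core, -0.31 for the base and -0.13 for the lid. In DLD1 it was 0.10, beside -0.31, -0.67 and -0.52, but the 5 genes had medians of -0.25 with median scaling and -0.15 in the deposited value table, so the direction in DLD1 is not settled. PSMB9 and PSME2 were lower in both lines, PSMB10 was higher in both, and PSMB8 and PSME1 were lower in HT29 and higher in DLD1. All 5 together are few, and no test of the group was made.

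PSMB10, which replaces PSMB7, was the 1 gene of the 48 that was higher in both lines under each of the 8 ways of processing. How many of all genes were so was not counted. PSMB10 has 1 probe, so no filter on dim probes and the brightest probe return its reported value and are no check on it. Its levels were 8.26 without and 7.73 with glucose in HT29, and 7.95 without and 7.50 with glucose in DLD1. Without glucose it was at 1.44 times its level with glucose in HT29 and at 1.36 times in DLD1, a mean change of 0.49 ± 0.06 (SD between the 2 lines, n = 2) with an adjusted p of 0.303 in limma. Its change ranged over the processings between 0.27 and 0.63 in HT29 and between 0.28 and 0.55 in DLD1. The deposited intensities were 220.9 without and 142.7 with glucose in HT29, and 147.3 without and 104.9 with glucose in DLD1. Set against PSMB7, whose place it takes, its change was larger by 0.43 log2 in HT29 and by 0.78 log2 in DLD1.

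PSMB9, which replaces PSMB6, was lower without glucose in both lines. Its levels were 6.60 without and 6.997 with glucose in HT29, and 7.58 without and 7.98 with glucose in DLD1, changes of -0.40 and -0.39. Over the processings its change ran between -0.81 and -0.39 in HT29 and between -1.301 and -0.39 in DLD1. PSMB8, which replaces PSMB5, had 7.82 without and 7.94 with glucose in HT29, but 9.08 without and 8.73 with glucose in DLD1, changes of -0.12 and 0.35. Its 2 probes disagreed in HT29, where they changed by -0.32 and 0.08, and were alike in DLD1, at 0.36 and 0.34.

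The genes of PA28 differed from each other. PSME1 had levels of 9.39 without and 9.85 with glucose in HT29, against 9.79 without and 9.69 with glucose in DLD1, a change of -0.46 in HT29 and 0.10 in DLD1. The DLD1 change of PSME1 was -0.25 with median scaling and -0.15 in the deposited value table. PSME2 had 10.45 without and 10.73 with glucose in HT29, and 10.42 without and 11.18 with glucose in DLD1, changes of -0.28 and -0.77. PSME2 was the 1 gene of these 5 that was at least 1.5-fold lower in a line, DLD1.

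**Figure D3:**
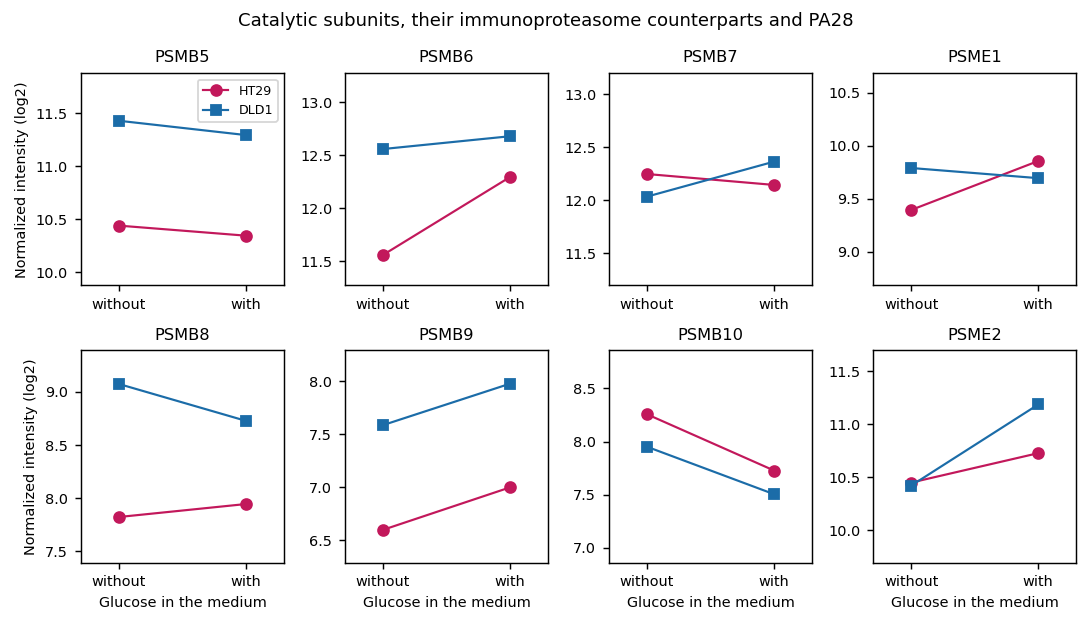
Normalised log2 intensity of the 3 proteolytic core subunits, the immunoproteasome subunits that replace them (below each) and the genes of PA28, without and with glucose, in HT29 (circles) and DLD1 (squares), 1 array per point. Each panel spans the same height on the log2 axis. PSMB10 is higher and PSMB9 lower without glucose in both lines.

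The promoters of these genes were also searched for the core of the interferon-stimulated response element, to which factors activated by interferon bind. This core, GAAA, any 2 bases, then GAAA, was found for 4 of the 5 immunoproteasome and PA28 genes and for 2 of the 26 26S genes with a window (PSMA4 and PSMB4). PSMG4 also held it. Of all genes with a window, 4.38% hold it. The 4 stretches are shown because they hold the matches of the immunoproteasome and PA28 genes. Whether the motif bears on the changes was not tested. They are written 5′ to 3′ on the strand of the gene, with the match in capitals.
PSMB10, chr16:67936842-67936891, minus strand: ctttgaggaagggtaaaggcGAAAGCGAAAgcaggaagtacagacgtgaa
PSMB8, chr6:32844022-32844071, minus strand: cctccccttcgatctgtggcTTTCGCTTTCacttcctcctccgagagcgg
PSME1, chr14:24136179-24136228, plus strand: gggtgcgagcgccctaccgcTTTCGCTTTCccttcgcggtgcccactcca
PSME2, chr14:24146609-24146658, minus strand: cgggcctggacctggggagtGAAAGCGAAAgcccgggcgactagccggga
In PSMB8 and PSME1 the match reads on the opposite strand, and all 4 hold the same 10 letters once read on the strand of the match. Of the 4, PSMB10 was higher in both lines, PSME2 was lower in both, and PSMB8 and PSME1 differed in sign between the lines. The window of PSMB9 did not hold these letters. TGACNNNGC was found for 3 of the 5 genes, PSMB9, PSME1 and PSME2. It was found for 14 of the 42 members with a window (33.3%) and for 16.1% of all genes.

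Among the other regulators, PSME4, the nuclear activator PA200, had the largest increase of the 48 genes in a single line. Its levels were 8.71 without and 8.07 with glucose in HT29, but 8.27 without and 8.22 with glucose in DLD1. It was at 1.57 times its level with glucose in HT29, and its DLD1 change of 0.05 was -0.15 with median scaling. PSME3, the activator of nuclear proteasomes, changed by -0.28 in HT29 and -0.45 in DLD1, where its spot median of 45.7 without glucose was dim and its change ran between -1.47 and -0.12 over the processings. PSMF1, an inhibitor of the core in vitro, changed by 0.05 and -0.12.

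The assembly factors split. PSMG3, which with PSMG4 helps the alpha ring form, had levels of 8.07 without and 9.30 with glucose in HT29, and 8.83 without and 9.62 with glucose in DLD1. Without glucose it was at 0.427 times its level with glucose in HT29 and at 0.578 times in DLD1, a mean change of -1.01 ± 0.31 (SD between the 2 lines, n = 2). PSMG1, of the other chaperone pair of the alpha ring, changed by 0.11 and -0.06. Its partner PSMG2, outside the rule, was higher, by 0.27 in HT29 and 0.80 in DLD1, with levels of 10.34 without and 10.07 with glucose in HT29 and 10.63 without and 9.83 with glucose in DLD1. Both of its probes were higher in both lines. Of the chaperones of the base, PSMD5 changed by -0.34 and -0.36, PSMD10 by 0.27 and -0.14, and PSMD9 by 0.25 and 0.17. PSMD9 had levels of 9.37 without and 9.12 with glucose in HT29, and 10.11 without and 9.95 with glucose in DLD1, and its DLD1 change was -0.19 with median scaling and -0.08 in the deposited value table. The tissue-specific PSMA8 and PSMB11 were within 0.06 log2 of no change in both lines, and PSMC3IP changed by -0.14 and 0.17.

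Genes that work with the proteasome but lie outside the prefix were taken from lists set by name. Of the partners, 15 of 17 were measured, with 6 lower and 4 higher in both lines (32.7% and 30.9% of all genes). ZFAND2A, a stress-inducible protein that binds the regulatory particle, had the largest change: its deposited intensities were 11545.9 without and 87.4 with glucose in HT29, and 247.5 without and 97.9 with glucose in DLD1. On the normalised scale this is a change of 6.13 in HT29 and 1.18 in DLD1. POMP, the maturation factor of the core, changed by -0.78 and -0.88, and UBQLN4, a shuttle for ubiquitinated proteins, by -0.40 and -0.50. Of the genes that supply and activate ubiquitin, 3 of 6 were measured. UBA1, the main ubiquitin-activating enzyme, changed by -0.47 and -0.60, and UBA6, an alternative activating enzyme, by 0.08 and -0.14. UBB, a gene for polyubiquitin averaged over 2 probes, changed by 0.32 and -0.15. The UBB probes were unlike in signal: in HT29 without glucose their mean spot median was 10432.6 but their mean level 10.13. In the deposited value table UBB changed by 0.89 in HT29 and -0.16 in DLD1.

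Of the NFE2L1 pathway, 9 genes of 10 were measured, and 6 of the 9 were higher in both lines (30.9% of all genes) and 0 were lower in both (32.7% of all genes), with median changes of 0.61 in HT29 and 0.20 in DLD1. MAFF, a partner protein of the NFE2L factors, changed by 1.54 and 0.20, NFE2L2, the antioxidant response factor, by 1.12 and 0.56, and SYVN1, a ubiquitin ligase of the endoplasmic reticulum, by 0.87 and 0.23. MAFF and SYVN1 were dim on every array but HT29 without glucose. In the deposited value table MAFF changed by 2.86 and 0.59, and SYVN1 by 1.94 and 0.80. NFE2L1 itself, named after its values were seen, changed by 0.48 and 0.26. Of the interferon and antigen presentation genes, 9 of 13 were measured, with 4 higher and 2 lower in both lines (30.9% and 32.7% of all genes) and median changes of 0.11 and 0.17. ERAP1, which trims peptides for presentation, changed by 0.19 and 0.43, IRF1, a transcription factor induced by interferon, by 0.38 and 0.22, and TAP1, a peptide transporter, by -0.22 and -0.34. ERAP1 was dim, with spot medians of 40.1 to 70.3, and its changes were 1.33 and 1.35 in the deposited value table.

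Between the lines, the immunoproteasome subunits PSMB8 and PSMB9 were lower in HT29 in both media. For PSMB8 the difference, HT29 minus DLD1, was -1.25 without and -0.78 with glucose, and for PSMB9 it was -0.99 and -0.98. With the local background subtracted, PSMB9 differed by -0.013 without glucose. PSMB10 was higher in HT29 by 0.31 and 0.22. At least 1.5-fold lower in HT29 in both media were 7 of the 48 genes, PSMB5, PSMB8, PSMB9, PSMC1, PSMD6, PSMD9 and PSMG1, and 5.35% of all genes passed that rule. PSMD8, a lid subunit, was the 1 gene at least 1.5-fold higher in both media, where 4.60% of all genes were. Its difference with glucose was -0.021 with the local background subtracted. Over the processings the differences without glucose of PSMC1, PSMG1 and PSMD9 were as small as -0.22, -0.23 and -0.33. As reported, 14 of the 31 26S subunits were higher and 13 lower in HT29 in both media, but 20 and 6 with median scaling. Over all 15616 genes these numbers were 5553 and 5402 as reported, and 6361 and 4451 with median scaling. The balance between the lines thus depends on the processing. The limma fit with medium as a block called 0 of the 48 genes and 0% of all genes for the line at an adjusted p of 0.05, with a smallest adjusted p of 0.136. At an unadjusted p of 0.05 it called 22 of the 48, where 21.3% of all genes were called.

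PSMD6, a lid subunit, had the largest mean difference in level between the lines, ahead of PSMB8 and PSMC4. Its levels were 8.78 in HT29 and 9.87 in DLD1 without glucose, and 8.93 in HT29 and 10.07 in DLD1 with glucose, differences of -1.09 and -1.14. With the local background subtracted the difference without glucose was 0.10. For PSMC4 the difference was 1.59 without and 0.42 with glucose, so its gap between the lines was wider without glucose. PSMB5 was lower in HT29 by 0.99 without and by 0.95 with glucose, and so HT29 had lower signals both for PSMB5 and for its counterpart PSMB8. In the deposited value table the median of all genes was itself 0.14 higher in HT29 without glucose and 0.10 higher with glucose, and there the differences of PSMB5 were -0.41 and -0.64.

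**Figure D4:**
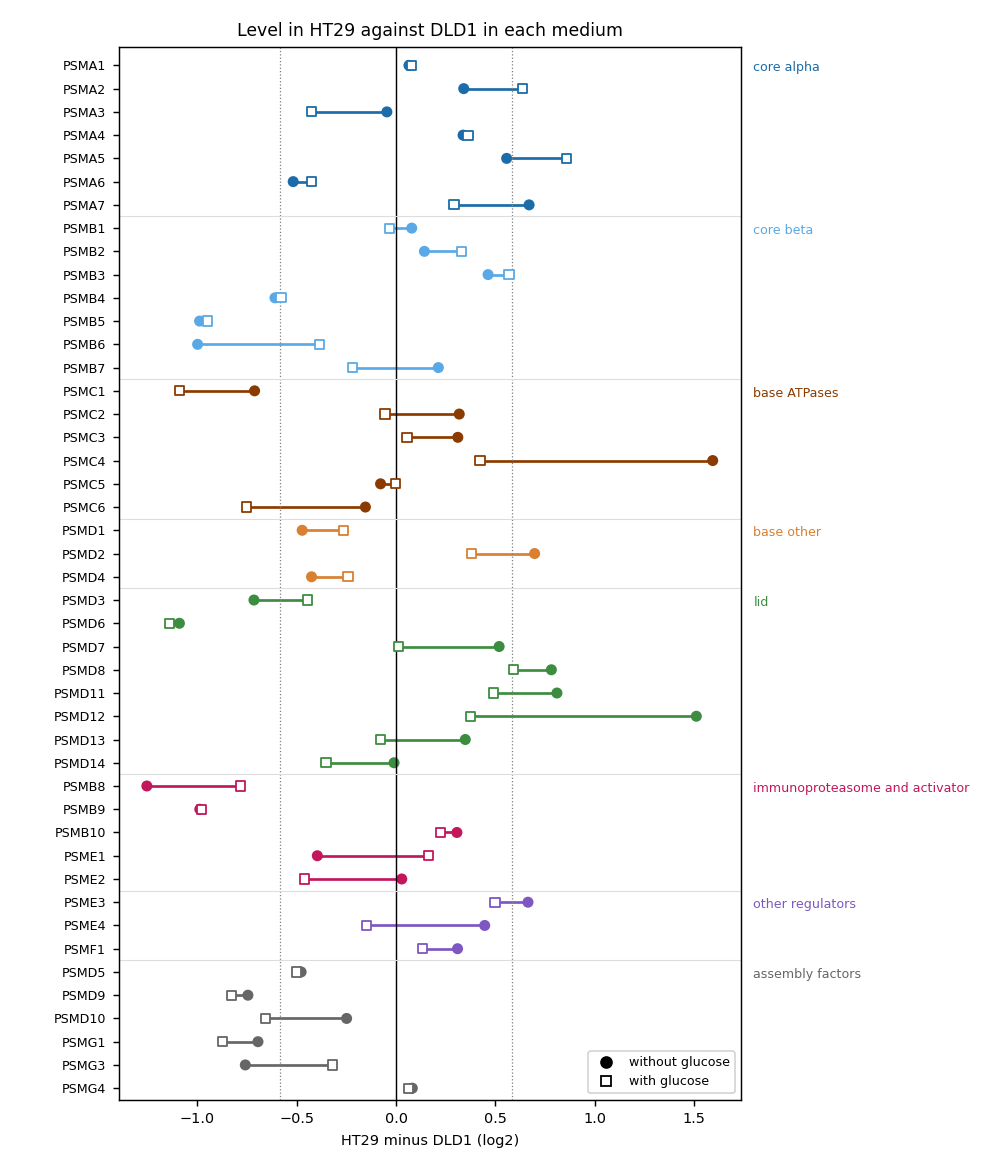
Level in HT29 minus level in DLD1 (log2 intensity) without glucose (filled circles) and with glucose (open squares) for the genes grouped by role, without PSMA8, PSMB11 and PSMC3IP, with dotted lines at 1.5-fold. PSMB5, PSMB8, PSMB9 and PSMD6 lie left of the dotted line in both media, and PSMC4 and PSMD12 have the widest gaps between media. With the local background subtracted, PSMD6 without glucose moves to 0.10.

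Across the 8 ways of processing, 15 of the 48 genes were lower in both lines in each: PSMA2, PSMA4, PSMA6, PSMA7, PSMB2, PSMB9, PSMC1, PSMC2, PSMC3, PSMD1, PSMD3, PSMD6, PSME2, PSME3 and PSMG3. Of these, 11 are 26S subunits. Leaving aside the subtraction of the local background, which followed the spot signal on every array (r of the logs 0.904 to 0.966), the number was 25, of which 20 are 26S subunits. PSMB10 was the 1 gene higher in both lines in each of the 8. The shares of all genes that pass these rules were not counted, so these numbers have no background beside them. For every member but PSMB8 and PSMB11, which have 2 probes, no filter on dim probes and the brightest probe repeat the reported value by construction.

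**Figure D5:**
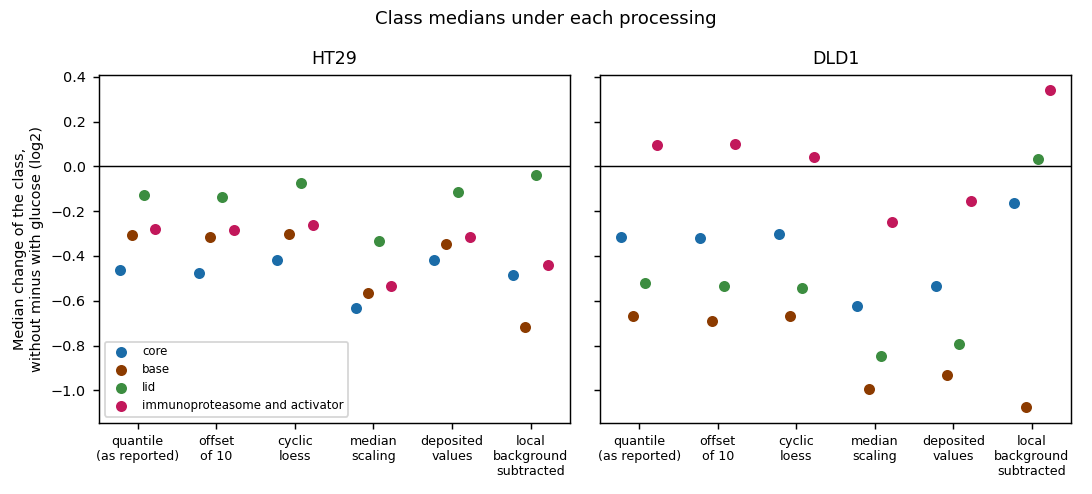
Median change, without minus with glucose, of the core, base, lid and immunoproteasome genes in HT29 (left) and DLD1 (right) under 6 ways of processing. Core and base are below 0 under all 6 in both lines. In DLD1 the immunoproteasome genes are above 0 as reported (0.10) and below 0 with median scaling (-0.25) and in the deposited values (-0.15), and the lid is at 0.035 with the local background subtracted.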

How the data were processed

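Total RNA of 4 cultures was amplified, coupled to Cy5 and hybridised to single-colour arrays, per the labels' protocols. For each spot the deposited scanner files give a median intensity at 635 nm that joins 3 scanner gains, per the file headers. A deposited value table gives linear intensity as well, as a straight line of the spot median with a median of 25 on each array. No source used here names the image software.

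Spot medians of all 27456 spots were corrected with normexp (offset 50) and quantile normalised with limma 3.58.1 in R 4.3.3. Controls and 1 flagged probe were dropped afterwards. Background was set at the 95th percentile of the blanks. A gene's value averaged the probes that passed it on 1 array or more, and genes that passed it in both lines (15616) were tested. Medium effects were fitted with line as a block and line effects with medium as a block, with 1 residual degree of freedom, and p-values were adjusted by Benjamini-Hochberg over all genes. They rest on the spread between the 2 lines or the 2 media, which limma moderates towards that of all genes. They measure no spread between repeated cultures. The offset damps changes of dim genes, and 4 arrays limit the precision. The medium fit was tested on simulated data.

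Groups came from the sample titles. The members and lists were chosen with earlier results of these data known. Values on every array are given for the immunoproteasome and PA28 genes, for PSMB5, PSMB6 and PSMB7, for the 3 highest and 3 lowest members by mean change, and for the 3 members with the largest difference between lines in change and the 3 in level. The 3 largest changes of each other list are given too, and the remaining members are named to account for all. Alternatives were median scaling, cyclic loess, local background subtracted, an offset of 10, the deposited value table as log2 of value plus 1, no filter on dim probes, the brightest probe of a gene, and the fits without the block.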

Additional observations from a re-analysis of the deposited data

Results flagged for a closer look

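PSMC4 was singled out because it changed by at least 0.3 log2 in opposite directions in the lines, 0.50 in HT29 and -0.67 in DLD1. It was the only one of the 48 genes to do so, and 2.15% of all genes did. The difference between the lines was not tested, since each line has 1 array per medium.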

How the results depend on the processing

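Cyclic loess moved each class median by less than the typical spread between the lines (0.096 log2) and each count by no more than 1.5 times. An offset of 10 did so except for members at least 1.5-fold higher in HT29 (2, against 1 as reported). No filter on dim probes and the brightest probe of a gene left these values unchanged, which was fixed in advance for members with 1 probe. With median scaling the median changes in HT29 and DLD1 were -0.52 and -0.81 for the 26S subunits, -0.63 and -0.62 for the core, -0.56 and -0.99 for the base, -0.33 and -0.85 for the lid, and -0.53 and -0.25 for the immunoproteasome and PA28 genes. Members at least 1.5-fold lower then numbered 16 in HT29 and 23 in DLD1, and 0 were at least 1.5-fold higher in HT29. The background moved as well. Of all 15616 genes, 2251 were at least 1.5-fold lower in HT29 and 1328 in DLD1 with median scaling, against 1397 and 715 as reported. At least 1.5-fold higher in HT29 were 915, against 1233 as reported. In the deposited value table the DLD1 medians were -0.72, -0.54, -0.93, -0.79 and -0.15 in the same order, 24 members were at least 1.5-fold lower in DLD1 and 2 were at least 1.5-fold higher in HT29. With the local background subtracted the DLD1 medians were -0.25, -0.17, -1.07, 0.035 and 0.34 in that order, the HT29 medians were -0.35 for the 26S subunits, -0.72 for the base and -0.44 for the immunoproteasome and PA28 genes, 8 members were at least 1.5-fold higher in DLD1, and 14 26S subunits were lower in both lines. The same setting turned the sign of 10 of the 48 changes in HT29 and 16 in DLD1, and left 18 of the 31 26S subunits lower in DLD1. Of values at least 1.5-fold as reported it turned 6: the DLD1 changes of PSMB1 (0.027) and PSMD13 (0.54), and the HT29 minus DLD1 differences of PSMB6 (0.31), PSMD2 (-0.053) and PSMD6 (0.10) without glucose and of PSMD8 (-0.021) with glucose. The cause of these shifts was not tested. Counts past 1.5-fold with the deposited values and with the local background subtracted stand here without the share over all genes. The limma fits called 0 members for the medium and 0 for the line under every setting. With no line block the medium count was 0, and with no medium block the line count was 0. Only the medium fit was tested on simulated data. It made no call there at any planted fold, so its lack of calls says nothing about the members. The line fit could make calls: with the deposited values it called 654 of all 14922 genes at an adjusted p of 0.05, and 0 members. Signal over background limits PSMG4, PSMA8, PSMB11 and PSMF1, PSME3 in DLD1, and, outside the rule, ERAP1, MAFF and SYVN1.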
